A study of Mus musculus with 79 samples.

Results

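The genes described here are the SRSF, CLK and RBM families of splicing regulators together with Rsrp1, in mice that breathed little oxygen for a few hours. They were chosen by symbol: Srsf or Rbm followed by a number, Clk 1 to 4, and Rsrp1, leaving out Rbm3. This gave 46 of the 15198 gene symbols listed in any count table, with 10 SRSF genes, 4 CLK genes, 31 RBM genes and Rsrp1. The mice were C57BL/6, 3 months old, and spent 4 h in a cage flushed to 6% oxygen or kept at 21% oxygen, called air below. Under a light-dark cycle (LD), 16 wild-type (WT) animals were exposed at zeitgeber time (ZT) 16-20 or ZT4-8, and each gave liver, kidney and lung. After 2 days of constant darkness (DD), only liver was sampled, from mice labelled Per1,2 double knockout (KO) and from WT mice, exposed at circadian time (CT) 16-20 or CT4-8. Every group had 4 mice, except KO CT16-20 at 6% oxygen with 3, which makes 79 libraries of bulk RNA.

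SR proteins (the SRSF genes) carry RNA recognition motifs and a tail rich in arginine and serine, bind exons and help the spliceosome to choose splice sites. CLK kinases phosphorylate that tail in the nucleus, which releases SR proteins from nuclear speckles. RBM is a naming series for proteins with RNA recognition motifs rather than a single pathway, and it holds splicing factors, RNA editing cofactors and RNA methylation adaptors. Many SR and CLK genes limit their own level through exons or introns whose inclusion sends the transcript to decay or keeps it in the nucleus. The counts here are per gene, so isoforms and splicing itself were not measured.

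The libraries held 1.44 to 6.74 M counts (median 3.02 M). Of the 46 genes, 42 were abundant enough to test in LD liver, 44 in kidney, 43 in lung, 35 in KO liver and 35 in WT liver in darkness, and Rbm11 was tested in none of these. The marker genes of liver, kidney and lung were high in the libraries of their own tissue. Levels are given as CPM, the counts of each library scaled to a common total with TMM factors. The targeted genes overlapped between the DD labels in air, with Per1 at 20.2 to 36.3 CPM in libraries labelled KO and 16.5 to 55.2 CPM in WT, and Per2 at 4.62 to 11.4 CPM in libraries labelled KO and 5.36 to 17.4 CPM in WT. At 6% oxygen Per1 was at 14.9 to 31.3 CPM in libraries labelled KO and 44.9 to 84.7 CPM in WT, and Per2 at 19 to 32.1 CPM in libraries labelled KO and 2.92 to 29.1 CPM in WT. Which exons are deleted is not given in the sources used here, so these levels do not test the labels, and KO below means the libraries labelled KO. The WT CT4-8 library of replicate A in air stood apart, with a median correlation with its group of 0.911 (log2 CPM across genes).

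Of the 46 genes, 24 were called in at least 1 of 10 comparisons of 6% with 21% oxygen, each in a single direction. Of these, 10 were called only higher and 14 only lower. How many of all genes were called at least once was not counted, so the 24 have no share of all genes beside them. Calls, and the words rose and fell, stand for an adjusted p under 0.05 in edgeR's quasi-likelihood test, adjusted by Benjamini-Hochberg over every gene of the table. The other 21 genes tested were called in no oxygen comparison. In lung, 6 genes were higher and 10 lower of 43 at ZT16-20, where 10.2% of all genes tested were called higher and 10.9% lower (21.1% in all). At ZT4-8 in lung, 7 were higher and 6 lower, where 11.2% of all genes tested were called higher and 11.4% lower (22.6% in all). In LD liver, 4 were higher and 6 lower of 42 at ZT16-20, where 9.98% of all genes tested were called higher and 10.3% lower (20.3% in all). At ZT4-8 in that tissue, 1 was higher and 5 were lower, where 5.43% of all genes tested were called higher and 4.21% lower (9.64% in all). In kidney, 2 were higher and 6 lower of 44 at ZT16-20, where 3.44% of all genes tested were called higher and 3.47% lower (6.9% in all). At ZT4-8 in kidney, 1 was higher and 5 were lower, where 2.79% of all genes tested were called higher and 2.49% lower (5.28% in all).

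In KO liver, 2 genes were higher and 5 lower of 35 at CT16-20, where 2.39% of all genes tested were called higher and 2.11% lower (4.51% in all). At CT4-8 in KO liver, 3 were higher and 5 lower, where 2.83% of all genes tested were called higher and 2.76% lower (5.59% in all). In WT liver in darkness, 2 were higher and 6 lower of 35 at CT16-20, where 5.28% of all genes tested were called higher and 4.55% lower (9.83% in all). At CT4-8 in WT liver, 4 were higher and 4 lower, where 5.7% of all genes tested were called higher and 6.07% lower (11.8% in all). Without the library that stood apart, 5 were higher and 3 lower there. As a share of the members tested, the called ones made up 13.6% (kidney at ZT4-8) to 37.2% (lung at ZT16-20). The share in LD liver at ZT16-20 was 23.8%, near the 20.3% of all genes. The median log2 fold change of the members lay between -0.18 and 0.07 in the 10 comparisons and that of all genes between -0.02 and 0.01. In bulk tissue, fewer cells of a type and less RNA per cell cannot be told apart for any of these differences.

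**Figure D1:**
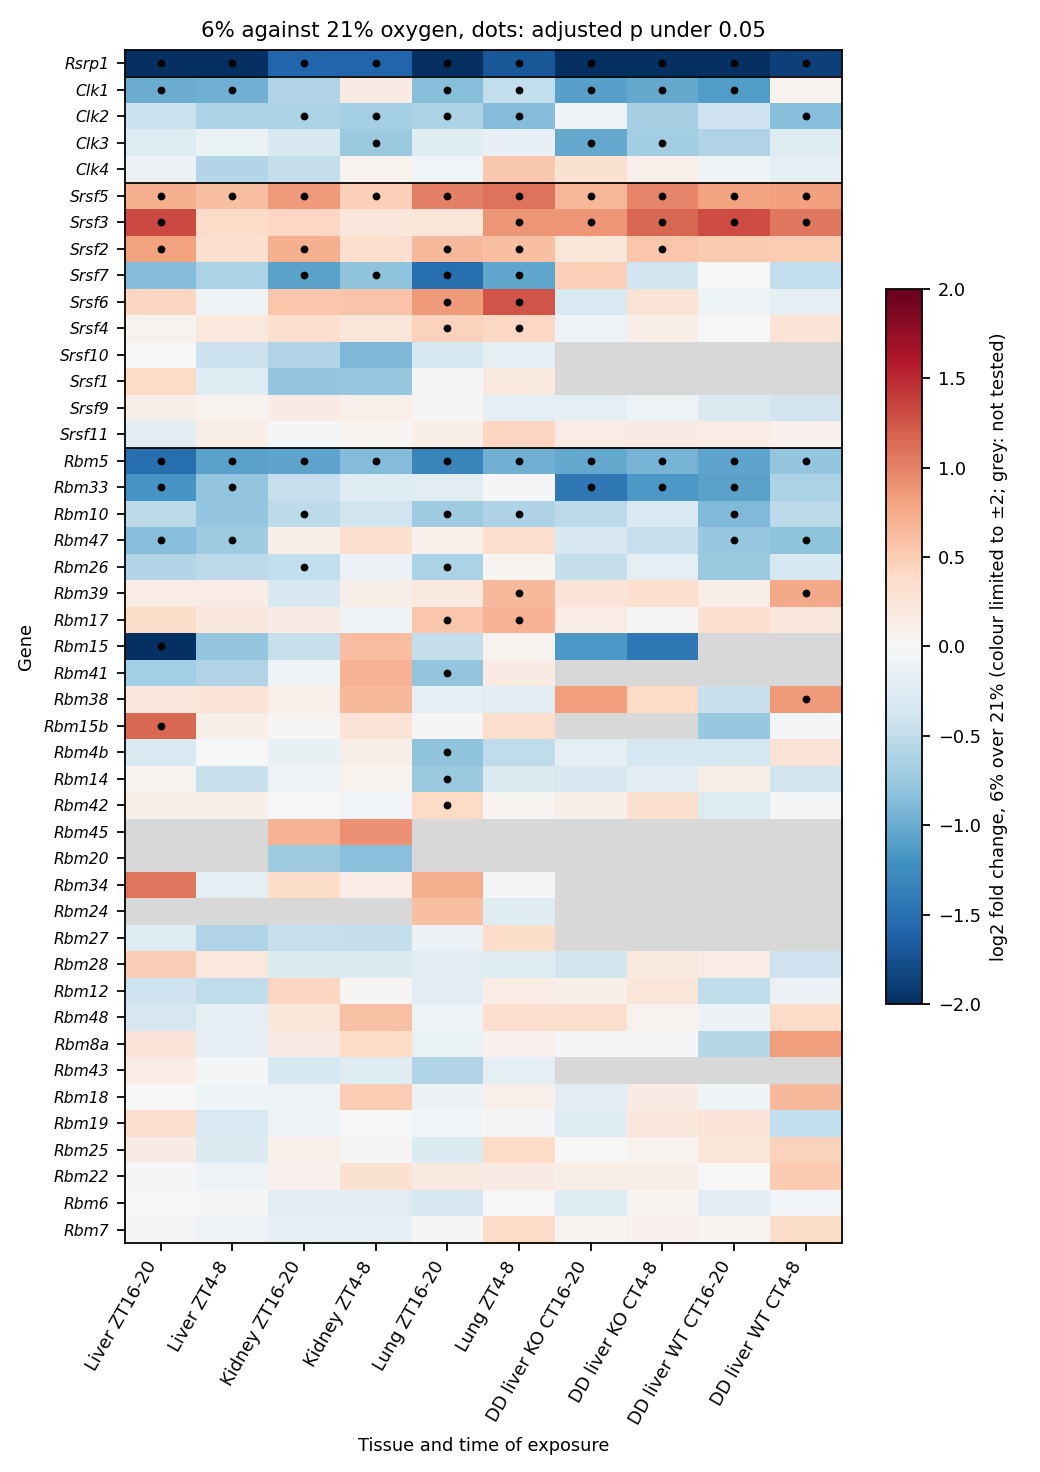
Log2 fold change of the 45 tested genes (rows, grouped as Rsrp1, CLK, SRSF and RBM) at 6% over 21% oxygen in 10 settings of tissue, time and genotype (columns), with a dot where the adjusted p was under 0.05 and grey where a gene was not tested. Rsrp1 and Rbm5 are blue and Srsf5 is red with a dot in all 10 columns, and the CLK dots are all on blue.

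The families differed in the direction of their calls. Over the 10 comparisons the 4 CLK genes gave 40 tests, of which 15 were called lower and none higher by edgeR. Clk1 made 7 of these falls, Clk2 made 5 and Clk3 made 3. The median log2 fold change of the family was negative each time (-0.68 to -0.21). The lone positive CLK fold change with an unadjusted p under 0.05 was that of Clk4 in lung at ZT4-8 (0.54 ± 0.23, adjusted p = 0.096 in edgeR, 0.12 in DESeq2). The SRSF genes gave 92 tests with 25 called higher and 4 lower and medians of 0.08 to 0.42, and all 4 falls were of Srsf7. Srsf5 made 10 of the rises, Srsf3 made 6 and Srsf2 made 5, and 4 of the 10 SRSF genes were never called. The RBM genes gave 256 tests with 7 called higher and 29 lower and medians of -0.25 to 0.06, and Rbm5 made 10 of these falls. Over all genes, 6117 of 99012 tests were called higher and 6042 lower, with medians of -0.02 to 0.01. In LD the 3 tissues came from the same mice, so these counts describe the libraries and are no test.

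Rsrp1, which encodes a protein rich in arginine and serine whose function is little studied, fell in all 10 comparisons. In lung at ZT16-20, where its p was smallest, it had 143, 139, 140.5 and 129 CPM at 6% oxygen, against 510.2, 526, 545 and 643 CPM in air. The log2 fold change was -2.01 ± 0.11 (SE; adjusted p = 8.5e-13). The drop was deepest in LD liver at ZT16-20, with 45.6, 45.7, 40.3 and 45.4 CPM at 6% oxygen, against 330.5, 248, 270.0 and 266 CPM in air (-2.66 ± 0.15, adjusted p = 3.9e-11). The 6% libraries formed a narrow band in both tissues, and the 6% and air groups did not overlap in any of the 10 comparisons.

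Rsrp1 in LD liver at ZT4-8 had 40.9, 28.9, 39.6 and 50.1 CPM at 6% oxygen, against 186, 208, 187 and 159 CPM in air (-2.21 ± 0.15). In kidney its fold change was -1.58 ± 0.16 at ZT16-20 and -1.58 ± 0.16 at ZT4-8, and in lung at ZT4-8 it was -1.69 ± 0.11. In darkness the fold change was -2.29 ± 0.19 at CT16-20 and -2.42 ± 0.18 at CT4-8 in KO liver, and -2.56 ± 0.16 and -1.86 ± 0.16 at the same times in WT liver. The highest of the 10 adjusted p-values was 1.1e-06, in kidney at ZT4-8. The mean of the liver groups at 6% oxygen ran from 39.9 to 51.5 CPM, while that of the liver groups in air ran from 185 to 295 CPM. These levels come from 3 count tables scaled separately.

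Rbm5, which in human cells regulates the splicing of apoptosis genes such as FAS, also fell in all 10 comparisons. In lung at ZT16-20 it had 79.4, 70.8, 73.3 and 65.0 CPM at 6% oxygen, against 188, 164, 164 and 201 CPM in air (-1.32 ± 0.10, adjusted p = 9.3e-10). In LD liver at ZT16-20 it had 13.2, 9.56, 13.7 and 14.7 CPM at 6% oxygen, against 33.3, 35.2, 39.5 and 37.9 CPM in air (-1.51 ± 0.18, adjusted p = 5.4e-06). In kidney at ZT16-20 it had 50.6, 39.8, 39.9 and 43.4 CPM at 6% oxygen, against 101, 83.7, 83.5 and 91.8 CPM in air (-1.05 ± 0.13, adjusted p = 9.9e-06). The 6% libraries were below every air library in these 3 comparisons.

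The groups of Rbm5 overlapped only in KO liver at CT4-8, with 21.7, 16.4, 14.4 and 28.2 CPM at 6% oxygen, against 40.2, 36.4, 47.1 and 27.2 CPM in air (-0.92 ± 0.20, adjusted p = 0.0088). Its smallest fall was in WT liver at CT4-8 (-0.79 ± 0.20, adjusted p = 0.011), a call lost without 6% replicate C (-0.71, adjusted p = 0.05). The remaining falls were -1.07 ± 0.18 in LD liver, -0.87 ± 0.13 in kidney and -0.95 ± 0.10 in lung at ZT4-8, and -1.02 ± 0.21 in KO liver and -1.06 ± 0.19 in WT liver at CT16-20.

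Srsf5, an SR protein that binds exonic enhancers, rose in all 10 comparisons. In lung at ZT4-8 it had 842, 816, 966 and 841 CPM at 6% oxygen, against 357, 402, 435 and 438 CPM in air (1.09 ± 0.10, adjusted p = 2e-08). In kidney at ZT16-20 it had 351, 389, 370.1 and 406 CPM at 6% oxygen, against 210.4, 205, 236 and 193 CPM in air (0.84 ± 0.10, adjusted p = 1.4e-05). Every 6% library was above every air library in all 10 comparisons. The rise was 1.01 ± 0.10 in lung at ZT16-20, 0.70 ± 0.14 and 0.60 ± 0.14 in LD liver at ZT16-20 and ZT4-8, 0.97 ± 0.15 in KO liver at CT4-8, and 0.80 ± 0.14 and 0.82 ± 0.14 in WT liver at CT16-20 and CT4-8.

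Of the rises of Srsf5, 2 did not hold in every alternative. The smallest, in kidney at ZT4-8 (0.47 ± 0.10, adjusted p = 0.0075), was lost with only the libraries compared (adjusted p = 0.052). That in KO liver at CT16-20 (0.67 ± 0.16, adjusted p = 0.022) was lost when any of 6% replicates B and C or air replicates A, B and C was left out alone (0.55 to 0.66, adjusted p = 0.05 to 0.13).

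**Figure D2:**
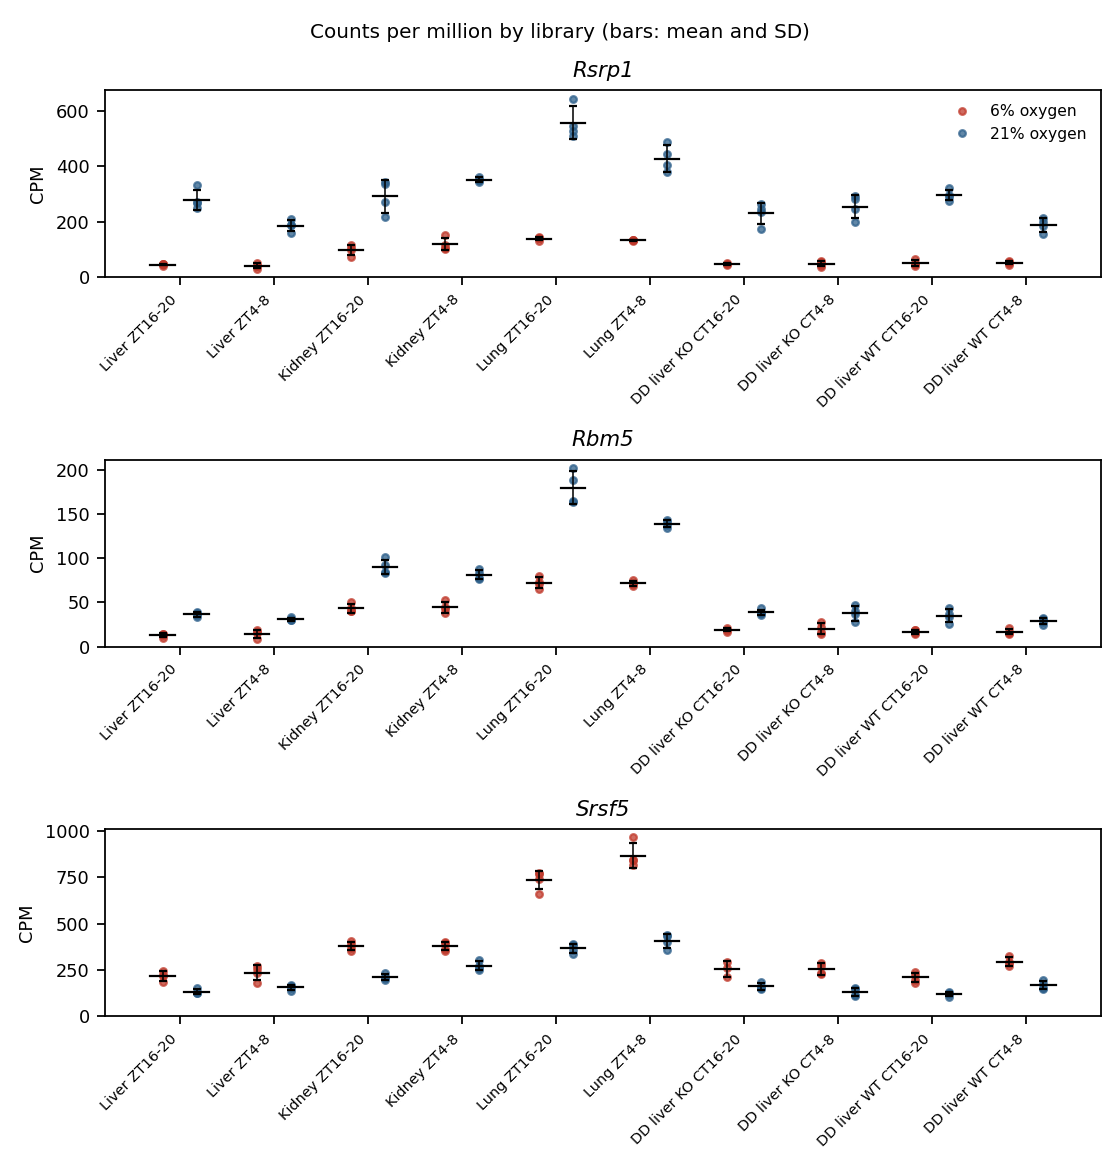
CPM of Rsrp1, Rbm5 and Srsf5 in each library (points) at 6% oxygen (red, left) and 21% oxygen (blue, right), with mean and SD, for 10 settings of tissue, time and genotype. For Rsrp1 and Srsf5 the 6% and 21% libraries do not overlap in any setting, and for Rbm5 they overlap only in KO liver at CT4-8.

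The promoters of these 3 genes, the only members called in all 10 oxygen comparisons, are printed so that their letters can be compared. They come from RefSeq (GRCm38.p6, whose chromosome sequences are those of mm10) and each ends before the first base that is transcribed in GENCODE M21 or RefSeq. Capitals mark matches on either strand to ACGTG, the core of the hypoxia response element and part of many E-boxes, or to TGACG, part of the cyclic AMP response element. In mm10 coordinates Rsrp1 is chr4:134923375-134923591 on the plus strand, Rbm5 is chr9:107771003-107771252 on the minus strand and Srsf5 is chr12:80945249-80945498 on the plus strand, each just upstream of its protein-coding gene.
Rsrp1: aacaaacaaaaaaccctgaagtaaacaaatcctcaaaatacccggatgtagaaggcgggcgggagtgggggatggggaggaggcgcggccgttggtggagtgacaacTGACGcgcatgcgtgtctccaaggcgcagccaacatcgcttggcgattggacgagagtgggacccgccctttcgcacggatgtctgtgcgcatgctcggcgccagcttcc
Rbm5: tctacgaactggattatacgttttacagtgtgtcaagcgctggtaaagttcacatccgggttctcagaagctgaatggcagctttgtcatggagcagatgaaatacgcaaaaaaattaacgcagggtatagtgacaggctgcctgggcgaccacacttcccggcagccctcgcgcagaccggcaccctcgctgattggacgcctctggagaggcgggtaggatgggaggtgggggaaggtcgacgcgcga
Srsf5: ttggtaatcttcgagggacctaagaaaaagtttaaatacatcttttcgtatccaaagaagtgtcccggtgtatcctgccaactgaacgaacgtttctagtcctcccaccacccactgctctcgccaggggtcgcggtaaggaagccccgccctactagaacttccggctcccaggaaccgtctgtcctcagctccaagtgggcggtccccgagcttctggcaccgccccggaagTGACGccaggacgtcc

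None of the 3 stretches holds ACGTG. Rsrp1 and Srsf5, which moved in opposite directions, hold TGACG once each, and Rbm5 holds neither motif. In windows of 300 bases around the RefSeq starts of the 41 members with an entry, 12 of 48 windows (25%) held ACGTG on either strand, against 23.7% of the windows of all listed genes and 19.6% of all windows. CACGTG, the E-box that contains ACGTG, was in 8.33% of member windows, against 9.21% of those of listed genes and 7.15% of all. TGACG, which was searched for after the data had been seen, was in 22 of 48 member windows (45.8%), against 28.2% and 20.8%. TGACG and ACGTG can overlap in TGACGTG. A match is a run of letters and shows no binding.

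Among the kinases, Clk1, which phosphorylates SR proteins and whose own transcripts are often held in the nucleus with introns retained, fell in 7 of 10 comparisons. In lung at ZT16-20 it had 110.1, 94.2, 112 and 104 CPM at 6% oxygen, against 195, 186, 165 and 212 CPM in air (-0.85 ± 0.11, adjusted p = 5.4e-06). LD liver at ZT16-20 had 25.7, 22.8, 24.6 and 19.2 CPM at 6% oxygen, against 49.6, 41.1, 37.5 and 57.1 CPM in air (-1.0 ± 0.15, adjusted p = 7.5e-05). The groups did not overlap in any of the 7 comparisons. The other falls were -0.97 ± 0.15 in LD liver at ZT4-8, -0.50 ± 0.11 in lung at ZT4-8, -1.08 ± 0.30 and -1.02 ± 0.28 in KO liver at CT16-20 and CT4-8, and -1.11 ± 0.25 in WT liver at CT16-20.

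The calls of Clk1 in KO liver were near the threshold. That at CT16-20 (adjusted p = 0.047) was lost when any of 6% replicates A and B, air replicates A, B and C, CT4-8 6% replicates A and D or CT4-8 air replicates A, B, C and D was left out alone (-1.28 to -0.72, adjusted p = 0.052 to 0.16), without the filter on low counts (adjusted p = 0.051) and with only the libraries compared (adjusted p = 0.1). That at CT4-8 (adjusted p = 0.038) was lost when any of 6% replicates A, C and D, air replicates A, B, C and D or CT16-20 air replicate B was left out alone (-1.09 to -0.83, adjusted p = 0.05 to 0.11).

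Clk1 was not called in kidney or in WT liver at CT4-8. In kidney at ZT4-8 it had 59.7, 74.7, 56.0 and 54.5 CPM at 6% oxygen, against 75.5, 34.5, 84.5 and 23.1 CPM in air (0.17 ± 0.30, adjusted p = 0.81). The air libraries were spread there on both sides of the 6% libraries. In kidney at ZT16-20 the fold change was -0.61 ± 0.30, adjusted p = 0.25. In WT liver at CT4-8 it had 23.9, 25.6, 35.1 and 20.8 CPM at 6% oxygen, against 10.7, 25.1, 36.1 and 27.1 CPM in air (0.07 ± 0.26, adjusted p = 0.9), and the lowest of these air values was that of the library that stood apart.

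Clk2 fell in 5 comparisons, and all 10 of its fold changes were negative. In lung at ZT4-8 it had 33.2, 24.6, 30.1 and 30.7 CPM at 6% oxygen, against 54.5, 53.2, 51.5 and 55.9 CPM in air (-0.86 ± 0.13, adjusted p = 2.2e-05), with no overlap. The other falls were -0.63 ± 0.13 in lung at ZT16-20, -0.63 ± 0.16 and -0.68 ± 0.16 in kidney at ZT16-20 and ZT4-8, and -0.85 ± 0.27 in WT liver at CT4-8, where the groups overlapped. The fall in kidney at ZT16-20 was lost when any of 6% replicate B or air replicates A and C was left out alone (-0.60 to -0.58, adjusted p = 0.05 to 0.056), and that at ZT4-8 without air replicate B (-0.60, adjusted p = 0.053) and with only the libraries compared (adjusted p = 0.052). The fall in WT liver (adjusted p = 0.045) was lost when any of 6% replicates A, C and D, air replicates A, B and D, CT16-20 6% replicates A, B and D or CT16-20 air replicates B, C and D was left out alone (-0.88 to -0.64, adjusted p = 0.052 to 0.17), by DESeq2 (adjusted p = 0.057), without the filter on low counts (adjusted p = 0.057) and with only the libraries compared (adjusted p = 0.11).

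Clk3 fell in 3 comparisons, and all 10 of its fold changes were negative. In KO liver at CT16-20 it had 26.2, 29.5 and 28.5 CPM at 6% oxygen, against 62.1, 50.1, 66.4 and 50.6 CPM in air (-1.03 ± 0.20, adjusted p = 0.003), with no overlap. It also fell in KO liver at CT4-8 (-0.70 ± 0.18, with overlapping groups) and in kidney at ZT4-8 (-0.75 ± 0.17). The call in KO liver at CT4-8 was lost when any of 6% replicates A, B and C or air replicates A, B and D was left out alone (-0.72 to -0.54, adjusted p = 0.057 to 0.087) and with only the libraries compared (adjusted p = 0.075), and that in kidney with only the libraries compared (adjusted p = 0.084). Exons of the antisense gene Edc3 cover 15.2% of its exonic length, and the strand setting of the counting is not given in the sources used here, so reads of the pair may be mixed. Clk4 was called in none of the 10 comparisons, with 4 fold changes positive and 6 negative and an unadjusted p under 0.05 in lung at ZT4-8 and in LD liver at ZT4-8 (-0.59 ± 0.27, adjusted p = 0.2). In lung at ZT4-8 it had 11.1, 13.3, 17.7 and 12.8 CPM at 6% oxygen, against 10.8, 10.1, 5.20 and 11.7 CPM in air, with overlapping groups.

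**Figure D3:**
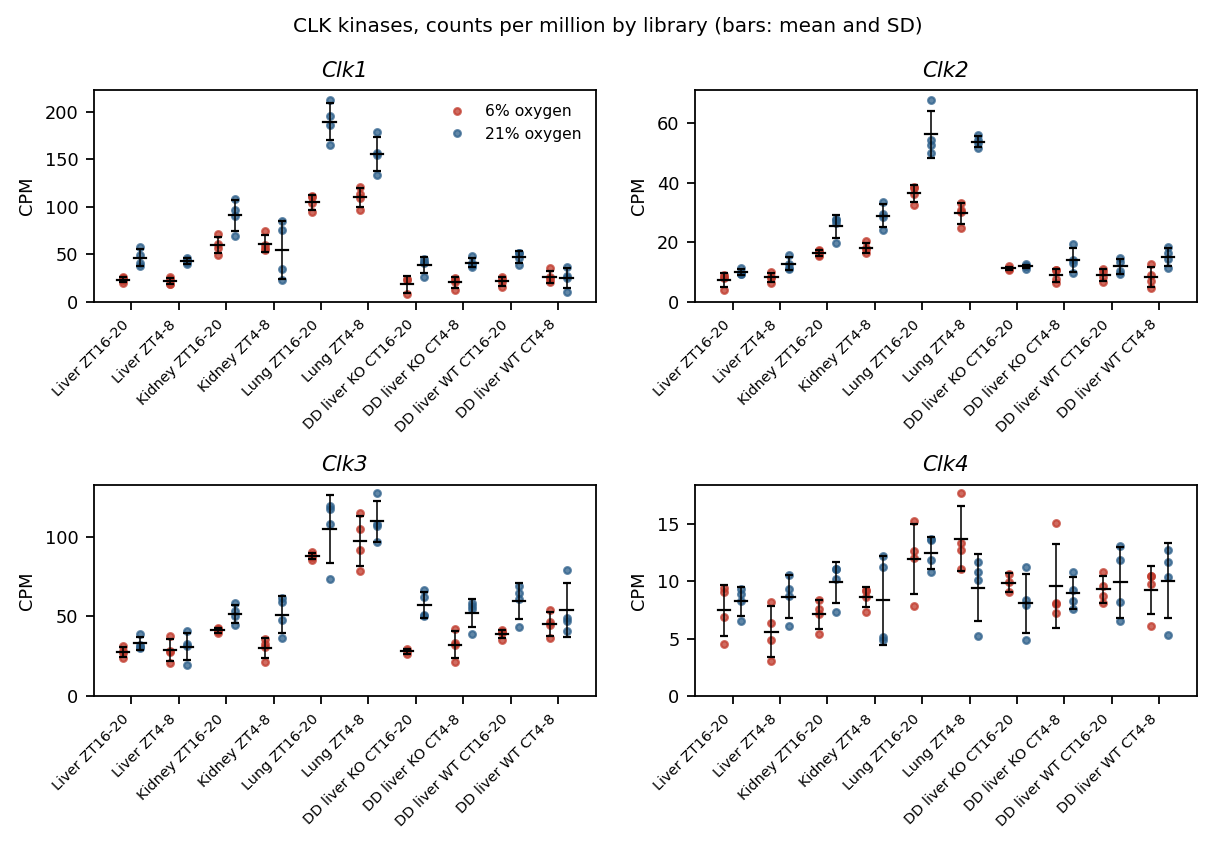
CPM of the 4 CLK kinases in each library (points) at 6% oxygen (red, left) and 21% oxygen (blue, right), with mean and SD, in 10 settings. Clk1 lies lower at 6% oxygen in lung and LD liver without overlap, Clk2 lies lower in lung and kidney, and the groups of Clk4 overlap in every setting.

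The SRSF genes that were called rose, apart from Srsf7. Srsf3, the smallest SR protein, which links splicing to export of the RNA, rose in 6 comparisons, and its 10 fold changes were all positive. Its p was smallest in LD liver at ZT16-20, with 17.1, 11.7, 13.7 and 16.8 CPM at 6% oxygen, against 6.89, 5.90, 4.24 and 7.05 CPM in air (1.33 ± 0.21, adjusted p = 9e-05). These levels rest on 44 to 82 counts per library at 6% oxygen and 24 to 29 in air, and the groups did not overlap. It also rose in KO liver at CT16-20 (0.89 ± 0.24) and CT4-8 (1.15 ± 0.23), in WT liver at CT16-20 (1.30 ± 0.29) and CT4-8 (1.06 ± 0.30), and in lung at ZT4-8 (0.88 ± 0.16). The rise in KO liver at CT16-20 was lost when any of 6% replicates A, B and C or air replicates A, B and C was left out alone (0.71 to 0.98, adjusted p = 0.056 to 0.15) and with only the libraries compared (adjusted p = 0.062), and that in WT liver at CT4-8 when any of 6% replicate D or air replicate C was left out alone (0.99 to 1.01, adjusted p = 0.053 to 0.065).

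Srsf2, a core component of nuclear speckles, rose in 5 comparisons, and its 10 fold changes were all positive. In kidney at ZT16-20 it had 150.0, 113, 135 and 162 CPM at 6% oxygen, against 80.0, 91.6, 85.5 and 85.2 CPM in air (0.71 ± 0.11, adjusted p = 0.00039), with no overlap. It also rose in LD liver at ZT16-20 (0.80 ± 0.15), in lung at ZT16-20 (0.65 ± 0.12) and ZT4-8 (0.61 ± 0.12), and in KO liver at CT4-8 (0.55 ± 0.15). The call in KO liver was lost when any of 6% replicates B and D or air replicates A, B and D was left out alone (0.49 to 0.58, adjusted p = 0.053 to 0.094) and with only the libraries compared (adjusted p = 0.058). Exons of Mettl23 and Mfsd11 on the other strand cover 25.3% of its exonic length, so its counts may include theirs.

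Srsf6, another SR protein, was called in lung at both times and in no other tissue. At ZT4-8 it had 24.6, 41.8, 47.3 and 54.5 CPM at 6% oxygen, against 17.5, 14.3, 18.8 and 19.7 CPM in air (1.26 ± 0.18, adjusted p = 1.4e-05), and at ZT16-20 its fold change was 0.86 ± 0.19. The 6% libraries were above the air libraries at both times. In kidney at ZT16-20 they were too, and the fold change was not called (0.55 ± 0.23, adjusted p = 0.16). The response of kidney minus lung was not called (-0.53 ± 0.24, adjusted p = 0.18). Srsf4 also rose in lung, by 0.47 ± 0.13 at ZT16-20 with overlapping groups and by 0.41 ± 0.13 at ZT4-8, and 43.0% of its exonic length is covered by an antisense gene. The call of Srsf4 at ZT16-20 was lost without 6% replicate C (0.40, adjusted p = 0.055), and that at ZT4-8 when any of 6% replicates A, C and D or air replicate B was left out alone (0.32 to 0.42, adjusted p = 0.053 to 0.1).

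Srsf7, an SR protein that also acts in RNA export, fell in 4 comparisons, unlike the other called members of its family, which rose. In lung at ZT16-20 it had 9.70, 6.98, 10.7 and 12.6 CPM at 6% oxygen, against 31.4, 18.9, 28.7 and 33.5 CPM in air (-1.51 ± 0.22, adjusted p = 2.3e-05). Every 6% library was below every air library there. It also fell in lung at ZT4-8 (-1.03 ± 0.21) and in kidney at ZT16-20 (-1.08 ± 0.20) and ZT4-8 (-0.80 ± 0.19), the last a call lost without 6% replicate A (-0.75, adjusted p = 0.062). In liver its fold change ran from -0.86 ± 0.33 in LD at ZT16-20, where the groups did not overlap (adjusted p = 0.068), to 0.48 ± 0.35 in KO mice at CT16-20 (adjusted p = 0.53). Srsf1, Srsf9, Srsf10 and Srsf11 were called in no oxygen comparison, and Srsf1 and Srsf10 were too low to test in the DD tables. Srsf1 came nearest, in kidney at ZT16-20, with 4.41, 4.10, 3.27 and 4.37 CPM at 6% oxygen, against 6.36, 7.31, 6.13 and 7.94 CPM in air (-0.77 ± 0.24, adjusted p = 0.05), and these groups did not overlap.

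Among the RBM genes, Rbm33, which in human cells takes part in removing methyl marks from adenosines of RNA, fell in 5 comparisons, all in liver. Its p was smallest in LD liver at ZT16-20, with 11.5, 10.9, 7.88 and 9.34 CPM at 6% oxygen, against 15.8, 25.6, 26.4 and 21.6 CPM in air (-1.18 ± 0.21, adjusted p = 0.00036), with no overlap. The other falls were -0.79 ± 0.23 in LD liver at ZT4-8, -1.43 ± 0.25 and -1.15 ± 0.25 in KO liver at CT16-20 and CT4-8, and -1.07 ± 0.25 in WT liver at CT16-20. All 10 of its fold changes were negative, and that in lung at ZT4-8 was -0.03 ± 0.14. The call in LD liver at ZT4-8 was lost when any of 6% replicates B, C and D or air replicates B and D was left out alone (-0.80 to -0.64, adjusted p = 0.059 to 0.11).

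Rbm10, a close relative of Rbm5, fell in 4 comparisons, and its 10 fold changes were all negative. In lung at ZT16-20 it had 42.8, 38.1, 33.9 and 40.3 CPM at 6% oxygen, against 64.0, 60.9, 61.1 and 67.0 CPM in air (-0.71 ± 0.14, adjusted p = 6e-04), with no overlap. It also fell in lung at ZT4-8 (-0.62 ± 0.14), in WT liver at CT16-20 (-0.88 ± 0.19) and in kidney at ZT16-20 (-0.52 ± 0.14), the last a call lost when any of 6% replicates B and D or air replicates A and D was left out alone (-0.51 to -0.48, adjusted p = 0.058 to 0.074). Rbm26 fell in lung at ZT16-20, where it had 27.9, 21.3, 18.6 and 19.2 CPM at 6% oxygen, against 35.1, 22.4, 29.2 and 47.0 CPM in air, with overlapping groups (-0.64 ± 0.19, adjusted p = 0.015). This call was lost when any of 6% replicates C and D or air replicate D was left out alone (-0.58 to -0.42, adjusted p = 0.052 to 0.092). It also fell in kidney at ZT16-20 (-0.49 ± 0.14, adjusted p = 0.041), a call lost when any of 6% replicates B, C and D or air replicates A, B, C and D was left out alone (-0.51 to -0.39, adjusted p = 0.07 to 0.15).

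Rbm47, a cofactor of the enzyme that edits apolipoprotein B RNA, fell in 4 comparisons, all in liver of WT mice. In WT liver at CT4-8 it had 26.9, 42.0, 33.0 and 33.6 CPM at 6% oxygen, against 68.4, 67.2, 46.0 and 55.5 CPM in air (-0.80 ± 0.20, adjusted p = 0.012), with no overlap. It also fell in LD liver at ZT16-20 (-0.85 ± 0.21) and, with overlapping groups, in LD liver at ZT4-8 (-0.71 ± 0.21) and in WT liver at CT16-20 (-0.75 ± 0.20). The call at ZT4-8 was lost when any of 6% replicates A and D or air replicates A and C was left out alone (-0.72 to -0.53, adjusted p = 0.062 to 0.12) and with only the libraries compared (adjusted p = 0.075), and that at CT16-20 when any of 6% replicate C or air replicate C was left out alone (-0.67 to -0.54, adjusted p = 0.065 to 0.09). In KO liver the fold change was -0.32 ± 0.19, adjusted p = 0.39 at CT16-20 and -0.47 ± 0.17, adjusted p = 0.13 at CT4-8, and the difference between genotypes was not called.

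Rbm39 and Rbm17, whose proteins act in recognising the end of the intron, rose in 2 comparisons each. In lung at ZT4-8 Rbm39 had 116, 155, 211 and 177 CPM at 6% oxygen, against 117, 121, 83.7 and 99.7 CPM in air, with overlapping groups (0.65 ± 0.15, adjusted p = 0.003), and in WT liver at CT4-8 its fold change was 0.76 ± 0.17. In lung at ZT4-8 Rbm17 had 101, 93.4, 97.5 and 104 CPM at 6% oxygen, against 73.1, 62.2, 62.4 and 48.1 CPM in air (0.69 ± 0.13, adjusted p = 0.00048), with no overlap, and in lung at ZT16-20 its fold change was 0.56 ± 0.13.

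Neutrophil markers moved with oxygen in the lung libraries of ZT16-20, where the sum of S100a8, S100a9, Ngp and Camp (4 of 4 listed) was 184 to 331 CPM at 6% oxygen and 34.2 to 83.9 CPM in air. At ZT4-8 the sums overlapped, at 232 to 496 CPM at 6% oxygen and 233 to 358 CPM in air. The sum of 4 endothelial markers (4 of 4 listed) in lung at ZT4-8 was 1860 to 2070 CPM at 6% oxygen and 1510 to 1710 CPM in air. In kidney at ZT4-8 the erythroid sum (1 of 5 listed) was 10.1 to 25.3 CPM at 6% oxygen and 29.6 to 52.7 CPM in air. In liver, neutrophil sums at CT4-8 were 13.8 to 71.6 CPM at 6% oxygen and 3.17 to 10.4 CPM in air in KO mice (4 of 4 listed). In WT mice at CT4-8 they were 3.31 to 12.3 CPM at 6% oxygen and 0 to 1.81 CPM in air (2 of 4 listed). At CT16-20 the erythroid sum of WT liver (1 of 5 listed) was 200 to 208 CPM at 6% oxygen and 122 to 190 CPM in air. In LD liver at ZT4-8 kidney markers (3 of 5 listed) summed to 0 to 0.256 CPM at 6% oxygen and 0.439 to 5.44 CPM in air. The part of these cells in the results was not tested.

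Further RBM genes were called once each. Rbm15, an adaptor of the RNA methylation complex, fell in LD liver at ZT16-20 on low levels, with 1.04, 0.796, 1.39 and 0.267 CPM at 6% oxygen, against 2.01, 4.67, 5.22 and 5.83 CPM in air (-2.29 ± 0.48, adjusted p = 0.0016). Its relative Rbm15b rose there, with 5.85, 3.98, 3.48 and 5.34 CPM at 6% oxygen, against 1.44, 0.738, 2.77 and 3.16 CPM in air (1.15 ± 0.34, adjusted p = 0.022), a call lost when any of 6% replicates A and D or air replicates A and B was left out alone (0.89 to 1.09, adjusted p = 0.051 to 0.07). Neither pair of groups overlapped. In lung at ZT16-20, Rbm14, a paraspeckle protein (-0.74 ± 0.19), Rbm4b (-0.81 ± 0.23) and, with overlapping groups, Rbm41 (-0.79 ± 0.26) fell, and Rbm42 rose with overlapping groups (0.40 ± 0.14).

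The call of Rbm41 was lost when any of 6% replicates A, B and C or air replicates B, C and D was left out alone (-0.78 to -0.66, adjusted p = 0.067 to 0.11), by DESeq2 (adjusted p = 0.056) and with only the libraries compared (adjusted p = 0.071), and that of Rbm42 when any of 6% replicates B, C and D, air replicates A and D or ZT4-8 6% replicates A, C and D was left out alone (0.25 to 0.44, adjusted p = 0.051 to 0.14) and with only the libraries compared (adjusted p = 0.13). Rbm4b is a near copy of Rbm4, and other genes cover 30.8% of the exonic length of Rbm4b, 21.0% of that of Rbm14 and 75.4% of that of Rbm42, so these counts are uncertain. Rbm38, which p53 induces, rose in WT liver at CT4-8 with overlapping groups (0.85 ± 0.26, adjusted p = 0.034), a call lost when any of 6% replicates B, C and D or air replicates B and C was left out alone (0.74 to 0.84, adjusted p = 0.065 to 0.11) and with only the libraries compared (adjusted p = 0.079).

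In all, 14 of the 30 RBM genes tested were called in an oxygen comparison, a count with no share of all genes beside it. By test, 2.73% of the RBM tests were called higher and 11.3% lower, against 6.18% and 6.1% of all gene tests. Rbm5 alone made 10 of the 29 RBM tests called lower. The 16 RBM genes tested and never called were Rbm6, Rbm7, Rbm8a, Rbm12, Rbm18, Rbm19, Rbm20, Rbm22, Rbm24, Rbm25, Rbm27, Rbm28, Rbm34, Rbm43, Rbm45 and Rbm48. Among them Rbm34, which was tested in LD only, had the lowest adjusted p, in LD liver at ZT16-20 (1.07 ± 0.41, adjusted p = 0.07). Rbm22, a core part of the active spliceosome, lay between -0.09 and 0.53, and Rbm25, which binds near the start of introns, between -0.28 and 0.46. Rbm6, a neighbour in sequence of Rbm5 and Rbm10, lay between -0.32 and 0.04.

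Whether the response depended on tissue was tested in a joint fit of the 48 LD libraries with mouse as a block, as the difference between tissues in the log2 response averaged over both times. In liver against kidney, 5 of 44 members were lower and none higher, where 3.25% of all genes tested were called higher and 3.18% lower (6.43% in all). Rbm47 had the smallest p: its fold change was -0.85 ± 0.21 and -0.71 ± 0.21 in liver at ZT16-20 and ZT4-8, against 0.13 ± 0.14 and 0.32 ± 0.14 in kidney at the same times, a difference of -0.99 ± 0.16, adjusted p = 2.1e-05. Rsrp1 (-0.84 ± 0.14, adjusted p = 7.5e-05), Clk1 (-0.79 ± 0.20, adjusted p = 0.011), Rbm15 (-1.61 ± 0.43, adjusted p = 0.015) and Rbm33 (-0.62 ± 0.18, adjusted p = 0.026) also had lower fold changes in liver. The difference of Clk1 uses kidney air libraries at ZT4-8 that were split. They had 75.55 and 84.53 CPM in replicates A and C, against 34.52 and 23.09 CPM in B and D. Leaving out 1 mouse at a time keeps part of this split, and its part in the call was not tested.

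In liver against lung, 6 members were lower and none higher, where 6.59% of all genes tested were called higher and 8.61% lower (15.2% in all). Rbm47 (-1.03 ± 0.17), Rbm33 (-0.89 ± 0.17), Rsrp1 (-0.61 ± 0.14) and Rbm15 (-1.33 ± 0.42) had lower fold changes in liver, as did Srsf5 (-0.43 ± 0.12), whose rise was smaller there, and Srsf6 (-0.88 ± 0.24). In kidney against lung, 3 members were lower and none higher, where 3.28% of all genes tested were called higher and 4.77% lower (8.05% in all). They were Rbm17 (-0.63 ± 0.16, adjusted p = 0.0087), Srsf5 (-0.43 ± 0.12, adjusted p = 0.015) and Rbm39 (-0.57 ± 0.17, adjusted p = 0.027). At an unadjusted p under 0.05 there were 13, 12 and 13 members in these tests, and DESeq2 called 5, 6 and 3. All genes were not counted at the unadjusted threshold.

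Calls of Rbm15, Rbm33 and Rbm39 in these tests changed when a mouse was left out. Those of Rbm15 were lost without ZT4-8 air mouse B (-1.40, adjusted p = 0.051) for liver against kidney and when any of ZT16-20 6% mouse D, ZT16-20 air mouse C, ZT4-8 6% mice A and D or ZT4-8 air mice A and B was left out alone (-1.22 to -1.13, adjusted p = 0.058 to 0.072) for liver against lung. That of Rbm33 against kidney was lost when any of ZT16-20 6% mouse C, ZT16-20 air mouse C, ZT4-8 6% mice B and C or ZT4-8 air mice B and D was left out alone (-0.61 to -0.55, adjusted p = 0.051 to 0.075). That of Rbm39 was lost when any of ZT16-20 6% mouse C, ZT4-8 6% mice C and D or ZT4-8 air mouse C was left out alone (-0.56 to -0.49, adjusted p = 0.056 to 0.075). Srsf7 and Clk2, called in kidney and lung and not in LD liver, were not called as different between tissues. Libraries of the same time, oxygen level and letter were taken to be from 1 mouse.

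**Figure D4:**
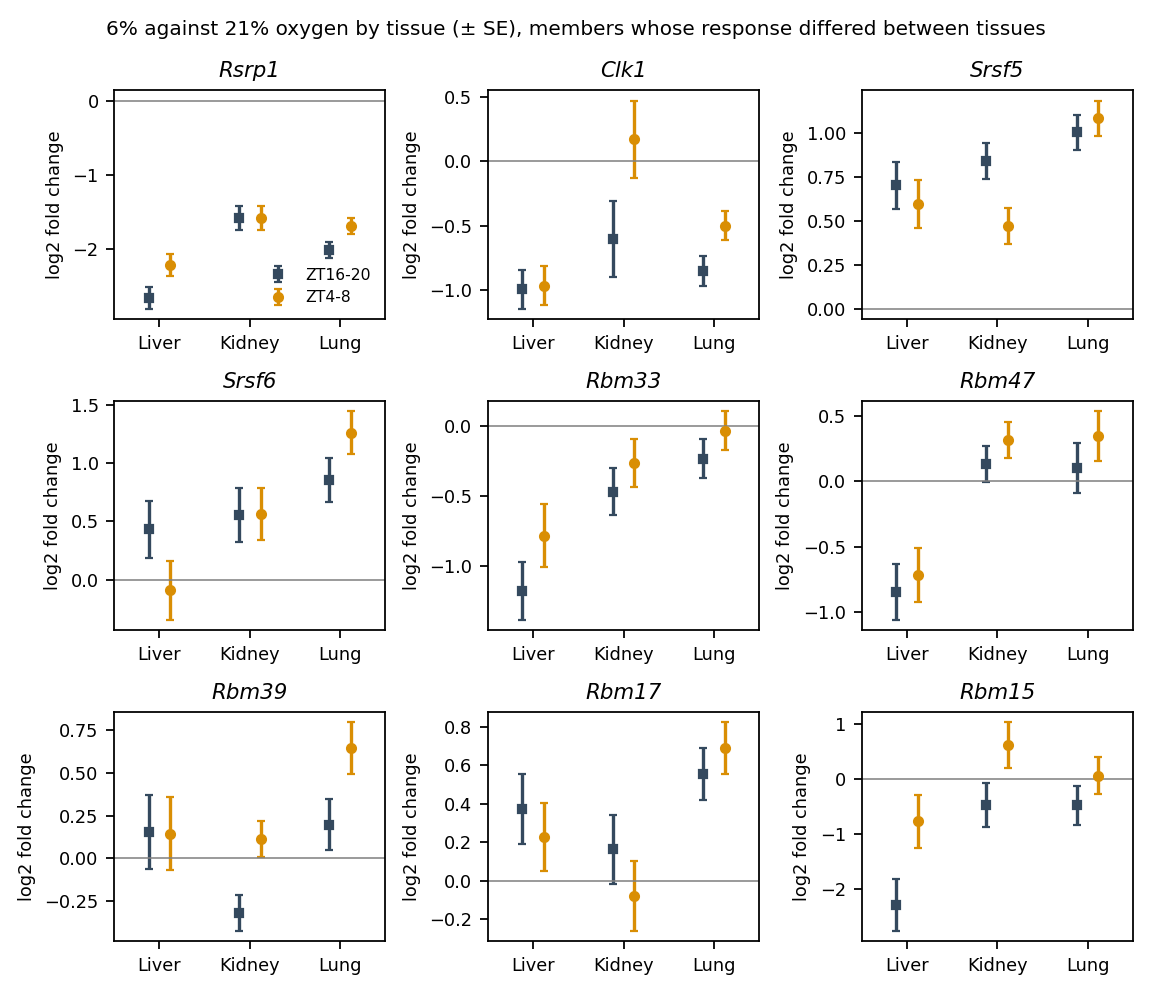
Log2 fold change ± SE at 6% over 21% oxygen in LD liver, kidney and lung at ZT16-20 (squares) and ZT4-8 (circles) for the 9 members whose response was called different between tissues. Rsrp1, Rbm33 and Rbm47 lie lowest in liver at both times, and Srsf5, Srsf6, Rbm39 and Rbm17 lie highest in lung at ZT4-8.

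The oxygen response was next compared between times of day. No member was called in LD liver, kidney, lung, KO liver or WT liver, by edgeR or by DESeq2. At an unadjusted p under 0.05 in edgeR there were 7 of 42 members in LD liver, 4 of 44 in kidney, 7 of 43 in lung, 0 of 35 in KO liver and 6 of 35 in WT liver. By adjusted p, 2.06% of all genes were called in LD liver, 0.368% in kidney, 0.255% in lung, 0.0117% in KO liver and 1.62% in WT liver. The share of all genes at the unadjusted threshold was not counted. The response of Rsrp1 at the later time minus that at the earlier time was -0.45 ± 0.20, adjusted p = 0.31 in LD liver, -0.32 ± 0.15, adjusted p = 0.62 in lung, 0.13 ± 0.25, adjusted p = 0.95 in KO liver and -0.70 ± 0.23, adjusted p = 0.14 in WT liver. The difference was 0.95 ± 0.28, adjusted p = 0.09 for Srsf3 in LD liver and -1.18 ± 0.35, adjusted p = 0.11 for Clk1 in WT liver.

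The response was also compared between genotypes. The response in KO minus that in WT was called for no member, by edgeR or DESeq2, with 1 of 36 members at CT16-20 and 3 of 36 at CT4-8 at an unadjusted p under 0.05 in edgeR. By adjusted p, 0.0444% of all genes were called at CT16-20 and 2.42% at CT4-8, and all genes were not counted at the unadjusted threshold. For Rsrp1 the difference was 0.27 ± 0.24, adjusted p = 0.77 at CT16-20 and -0.57 ± 0.23, adjusted p = 0.19 at CT4-8. For Clk1 it was -1.10 ± 0.40, adjusted p = 0.14 at CT4-8. Depth differed within KO liver: at CT16-20 the libraries held 2.8 to 3.77 M counts at 6% oxygen and 1.44 to 2.02 M in air, and at CT4-8 they held 1.96 to 2.48 M at 6% oxygen and 1.59 to 1.91 M in air. At CT16-20 the sum of 5 liver markers (5 of 5 listed) was 60000 to 66100 CPM at 6% oxygen and 79000 to 105000 CPM in air, and the part of depth or of these markers in the KO results was not tested.

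In air, KO against WT was called for no member by edgeR or DESeq2, with 7 of 36 at CT16-20 and 11 of 36 at CT4-8 at an unadjusted p under 0.05 in edgeR. By adjusted p, 2% of all genes were called at CT16-20 and 4.51% at CT4-8. The unadjusted counts of members cannot be set against these shares, and all genes were not counted at that threshold. At CT4-8 Rsrp1 had 279.7, 199, 292 and 245 CPM in KO liver, against 197, 214, 154 and 185 CPM in WT liver, each scaled within its table (0.45 ± 0.16, adjusted p = 0.089 in the joint fit). Genotype and count table coincide, so a shift between tables and a difference of genotype in air cannot be told apart.

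Time of day in air changed few members and a small share of all genes. In LD liver 3 of 42 members (7.14%) differed between ZT16-20 and ZT4-8. Of all genes tested there, 3.24% were called higher and 2.68% lower (5.91% in all). Srsf3 was lower at the later time, with 6.89, 5.90, 4.24 and 7.05 CPM at ZT16-20, against 9.66, 14.3, 10.0 and 11.7 CPM at ZT4-8 (-0.95 ± 0.21, adjusted p = 0.0077). Rbm33 was higher at the later time, with 15.8, 25.6, 26.4 and 21.6 CPM at ZT16-20, against 10.8, 12.4, 9.78 and 14.6 CPM at ZT4-8 (0.91 ± 0.20, adjusted p = 0.0088). Neither pair of groups overlapped. Rsrp1 was higher at ZT16-20 as well (0.59 ± 0.14, adjusted p = 0.012), a call lost without ZT16-20 air replicate A (0.50, adjusted p = 0.052).

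In WT liver in darkness 2 of 35 members (5.71%) were higher at CT16-20 than at CT4-8. Of all genes tested there, 1.8% were called higher and 1.86% lower (3.66% in all). Rsrp1 had 289.8, 274, 321 and 296 CPM at CT16-20, against 197, 214, 154 and 185 CPM at CT4-8 (0.66 ± 0.15, adjusted p = 0.017), a call lost with only the libraries compared (adjusted p = 0.063). Clk1 had 51.1, 38.4, 51.6 and 46.1 CPM at CT16-20, against 10.7, 25.1, 36.1 and 27.1 CPM at CT4-8 (0.89 ± 0.24, adjusted p = 0.042), a call lost when any of CT16-20 6% replicate D, CT16-20 air replicates A, B, C and D, CT4-8 6% replicate B or CT4-8 air replicates B and D was left out alone (0.85 to 0.99, adjusted p = 0.05 to 0.099) and with only the libraries compared (adjusted p = 0.15). The times did not overlap for either gene. Without the library that stood apart the differences were 0.70 for Rsrp1 (adjusted p = 0.0037) and 0.69 for Clk1 (adjusted p = 0.039). Only Rsrp1 was called for time in both LD liver and WT liver in darkness. In darkness Srsf3 had 13.05, 6.905, 4.329 and 14.91 CPM at CT16-20, against 5.356, 10.41, 7.672 and 13.7 CPM at CT4-8. These groups overlapped, as did those of Rbm33. Clk1 in LD liver averaged 46.34 CPM at ZT16-20 and 42.93 CPM at ZT4-8 in air. In KO liver Rsrp1 had 262, 245, 235 and 174 CPM at CT16-20, against 279.7, 199, 292 and 245 CPM at CT4-8 (-0.15 ± 0.17, adjusted p = 0.87), with overlapping groups. Whether the time difference in air depended on genotype was not tested.

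No member was called for time in air in kidney, lung or KO liver by edgeR, where 1.09%, 0.979% and 0.0235% of all genes were called. At an unadjusted p under 0.05, a threshold at which all genes were not counted, there were 6 members in kidney, 11 in lung and 2 in KO liver. DESeq2 called 1, 2 and 0. In lung Rsrp1 had 510.2, 526, 545 and 643 CPM at ZT16-20, against 404, 442, 377 and 485 CPM at ZT4-8, with no overlap (0.38 ± 0.10, adjusted p = 0.072). The air libraries used here are also those of the oxygen comparisons.

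**Figure D5:**
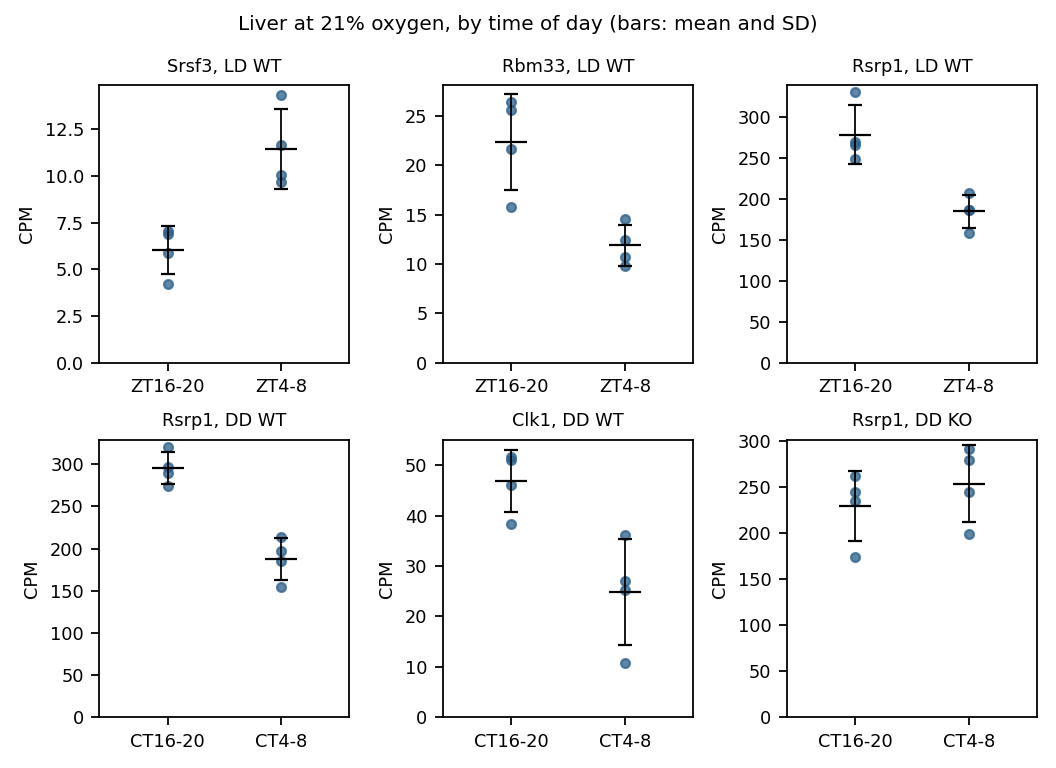
CPM in liver in air at ZT16-20 or CT16-20 (left) and ZT4-8 or CT4-8 (right) of the members called for time of day in WT mice, and of Rsrp1 in KO liver, with points for libraries and bars for mean and SD. The times do not overlap in the 5 WT panels and overlap for Rsrp1 in KO liver.

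Between tissues in air, most genes differed. Of 44 members, 14 were higher and 11 lower in liver than in kidney, where 32.6% of all genes tested were called higher and 33.3% lower (65.9% in all). In lung 18 were higher and 10 lower than in kidney, where 38.7% of all genes tested were called higher and 36.8% lower (75.5% in all). In the joint scaling Rbm47 averaged 53.9 ± 8.38 CPM in liver and 16.0 ± 3.94 CPM in lung, against 128.8 ± 12.1 CPM in kidney (SD, n = 4 each, ZT16-20). Over both times its difference from kidney was -1.12 ± 0.11 for liver and -3.24 ± 0.12 for lung on the log2 scale. Rbm7, a subunit of a nuclear exosome complex, was higher in liver than in kidney (1.06 ± 0.11), as was Rbm17 (0.60 ± 0.11), while Srsf7 was lower (-0.95 ± 0.16). Rbm38 (1.22 ± 0.14), Clk1 (1.10 ± 0.13) and Clk2 (0.77 ± 0.11) were higher in lung than in kidney. Tissue and count table coincide, so a shift between tables and a difference of tissue in air cannot be told apart.

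Other genes of RNA processing were counted over the same 10 oxygen comparisons, where 6.18% of all gene tests were called higher and 6.1% lower and the median log2 fold change of all genes stayed between -0.02 and 0.01. Kinases and phosphatases of SR proteins other than CLK gave 12 calls higher and 3 lower in 90 tests (medians of -0.17 to 0.37). Dyrk2, a kinase related to the CLKs, made 8 of the rises, the largest in lung at ZT4-8 (1.85 ± 0.25), while Dyrk1a rose in 2 and Dyrk1b fell in 1. SR-related proteins gave 19 calls higher and 16 lower in 230 tests (-0.09 to 0.33). Luc7l3, a protein of the U1 particle that recognises the start of the intron, fell in 7, the furthest in LD liver at ZT16-20 (-1.25 ± 0.19), while Nktr rose in 6 and Pnn fell in 3.

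Heterogeneous nuclear ribonucleoproteins gave 25 calls higher and 6 lower in 208 tests (-0.01 to 0.41), with Syncrip higher in 6, Hnrnpdl higher in 5 and Hnrnph3 lower in 4. The core spliceosome gave 21 calls higher and 7 lower in 362 tests (0.01 to 0.15), with the branch point factor Sf3b1 higher in 5, U2af1 higher in 3 and Prpf38b lower in 3. Other regulators of alternative splicing gave 26 calls higher and 6 lower in 178 tests (-0.10 to 0.34), with Elavl1 higher in 6 and Pspc1 in 6. Genes of nonsense-mediated decay gave 1 call higher and 8 lower in 96 tests (-0.21 to 0.13). Upf1, the central helicase of that pathway, fell in 4, Upf2 fell in 2 and Smg1 rose in 1.

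The nuclear RNA Neat1, the scaffold of paraspeckles, fell in kidney (-1.17 ± 0.12 at ZT16-20 and -2.09 ± 0.12 at ZT4-8) and in lung (-1.43 ± 0.11 and -1.77 ± 0.11 at the same times) and was called in no liver comparison. Malat1, a nuclear RNA of speckles, rose in 3 comparisons. Cirbp, an RNA-binding protein induced by cold, rose in all 10, by 1.61 ± 0.28 in WT liver at CT4-8 to 2.87 ± 0.21 in kidney at ZT16-20. Rbm3, a related cold-inducible gene, rose in 1 of 8 comparisons in which it was tested, WT liver at CT4-8 (1.09 ± 0.35, adjusted p = 0.045).

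Annotated transcript types were compared between the members and the listed protein-coding genes, without matching for the number of transcripts per gene. In GENCODE M21, 24 of the 46 genes (52.2%) have a transcript marked for nonsense-mediated decay, against 26.6% of 14014 listed protein-coding genes. Of the SRSF genes it is 9 of 10. A transcript with a retained intron is annotated for 34 of the 46 (73.9%), against 55.4%. Rsrp1 has 8 annotated transcripts, of which 1 has a retained intron and 0 are marked for decay. Rbm5 has 24, of which 13 have a retained intron and 4 are marked for decay, while Srsf5 has 12 with 3 and 1, and Clk1 has 13 with 7 and 2. These are annotations, and which of the transcripts the counts came from is not known.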

How the data were processed

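RNA of liver, kidney and lung was measured in 79 libraries. The authors deposited raw read counts per gene symbol in 5 tables, 1 for each tissue in LD and 1 for each genotype in DD. Reads were processed with bcl2fastq, cutadapt, STAR and HTSeq on mm10, per the submitters' processing notes, and versions, annotation and strand setting are not stated there. Libraries were amplified by in-vitro transcription, per the labels' protocols. Every gene listed has a count of 6 or more in some library of its table.

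From these counts, edgeR 4.0.16 (R 4.3.3) quasi-likelihood tests were run with robust fitting, TMM scaling and filterByExpr (minimum count 10, minimum total 15), with Benjamini-Hochberg adjustment over all genes and a threshold of 0.05. Each table had its own fit of 4 groups. Genotypes were compared in a joint fit of 31 libraries, and tissues in a joint fit of 48 libraries with mouse as a block. Values after ± are standard errors of the log2 fold change unless SD is stated. The fits were tested on simulated counts. Alternatives were RLE factors, no filter, DESeq2 1.42.0, the replicate letter as a block (or no mouse block), fits on the libraries compared and leaving out each replicate. Of 117 pairs of libraries within groups, 0 were identical, and each differed by more than sampling noise (chi-square per degree of freedom 2.31 to 31.3).

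The members, the other gene lists and the tests were chosen with earlier results of these data known. Rsrp1, the CLK genes and the 12 SRSF and RBM genes called most often are given by library in the comparison with their smallest p, and values of further members were added to account for them. Up to 3 members of each other list are named, by the number of calls, and 1 gene that this rule names is not reported here. Rbm20 and Rbm45 were too low to test in LD liver and lung. Rbm15, Rbm27, Rbm34, Rbm41, Rbm43, Rbm45, Srsf1 and Srsf10 were too low in WT liver in DD, as were these except Rbm15, together with Rbm15b and Rbm20, in KO liver. Promoters and gene overlaps came from RefSeq (GRCm38.p6) and GENCODE M21. Clk1, Rbm8a, Rbm20, Rbm22 and Rbm27 had no promoter entry. Nothing says that the samples of a group came from separate cages or days, so the p-values measure the spread between these mice.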

Additional observations from a re-analysis of the deposited data

Results flagged for a closer look

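Of 323 groups of 4 libraries of Rsrp1, the 4 CLK genes and the 12 SRSF and RBM genes called most often, 13 held a library whose gap to the nearest other was a larger share of the range of the group than Dixon's critical value for 4, which chance exceeds in about 1 group in 20. A count of 13 among 323 groups is no more than that rate alone would give. In LD liver at ZT16-20 and 6% oxygen a library stood low for Rsrp1, at 40.34 CPM against 45.39 to 45.67 CPM in the others. In the air libraries of ZT16-20, 1 stood apart for Clk2 in LD liver, at 11.41 CPM, 1 for Clk2 in kidney, at 19.6 CPM, and 1 for Rbm33 in lung, at 59.81 CPM. In lung, 1 library stood apart for Srsf2 at ZT16-20 and 6% oxygen, at 166.8 CPM, and 1 for Srsf3 at ZT4-8 in air, at 41.14 CPM. In kidney at ZT4-8, 1 stood apart for Srsf6 at 6% oxygen, at 29.04 CPM, and 1 for Rbm17 in air, at 35.17 CPM. In darkness at CT4-8 and 6% oxygen, 1 stood apart for Clk4 in KO liver, at 15.1 CPM. In WT liver of the same time and oxygen, 1 stood apart for Clk4, at 6.144 CPM, 1 for Srsf2, at 65.05 CPM, and 1 for Srsf7, at 6.617 CPM. In WT liver at CT16-20 and 6% oxygen, 1 stood apart for Srsf3, at 17.85 CPM.

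The log2 response to 6% oxygen differed between tissues for 9 members, by the test of the difference itself in the joint fit. Called members were 11.4% for liver minus kidney, 13.6% for liver minus lung and 6.82% for kidney minus lung. The shares of all genes called were 6.43%, 15.2% and 8.05%, so the last 2 member shares were no higher than those of all genes. Liver minus kidney was -0.99 for Rbm47, -0.84 for Rsrp1, -0.79 for Clk1, -1.61 for Rbm15 and -0.62 for Rbm33. Liver minus lung was -1.03 for Rbm47, -0.89 for Rbm33, -0.61 for Rsrp1, -0.43 for Srsf5, -0.88 for Srsf6 and -1.33 for Rbm15. Kidney minus lung was -0.63 for Rbm17, -0.43 for Srsf5 and -0.57 for Rbm39.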

How the results depend on the processing

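Of 2440 alternative values of 118 single results, 2276 kept their direction and their side of the threshold, 164 kept the direction and lost the call, and 0 reversed. Most of these results were taken because they had been called, and most alternatives left out 1 replicate or mouse. The alternatives share most of their libraries with the main fits and are no independent support. RLE factors shifted the median fold change of a comparison by at most 0.0089 (log2). With only the libraries compared, the number of members called was 3 for oxygen in kidney at ZT4-8 (6 with all 4 groups) and 0 for time in air in WT liver in DD (2 with all 4 groups), both with fewer libraries to estimate the spread. DESeq2 called 1 member for time in air in kidney and 2 in lung, where edgeR called 0. Leaving out 1 replicate gave 5 to 9 members for oxygen in kidney at ZT16-20, 4 to 7 in KO liver at CT16-20, 5 to 8 in KO liver at CT4-8 and 5 to 8 in WT liver at CT4-8. It gave 0 to 1 for the oxygen response by time in WT liver in DD, 0 to 1 for KO against WT in air at CT4-8, 0 to 1 for time in air in kidney and 1 to 3 for time in air in WT liver in DD. Leaving out 1 mouse gave 3 to 6 members for liver minus kidney and 2 to 5 for kidney minus lung.

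With the replicate letter as a block, 5 members were called in KO liver at CT4-8 (8 without the block), and Clk1 (adjusted p = 0.071), Srsf2 (0.07) and Clk3 (0.05) lost the call. In KO liver at CT16-20 Clk1 (0.082) and Srsf5 (0.076) lost it, as did Rbm26 in kidney at ZT16-20 (0.065), all in edgeR. Same-letter libraries of different groups had a median correlation of deviations of -0.064 to -0.014 within tables, and whether a letter marks anything shared was not tested. Between tissues the median was 0.024, with 5 of 48 pairs over 0.1, and the causes of these changes were not tested. Low counts limit the genes of lowest level: Rbm15 in LD liver at ZT16-20 rests on 1 to 6 counts per library at 6% oxygen and 7 to 32 in air.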
